A study of Mus musculus with 16 samples.

Results

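The naive pluripotency factors described here are 10 transcription regulators of mouse embryonic stem cells, Pou5f1, Sox2, Nanog, Prdm14, Esrrb, Nr0b1, Nr5a2, Tfcp2l1, Tbx3 and Zfp42. They were found by symbol, through the Ensembl identifier of each row, among the 52636 genes of a raw count table, and each matched 1 row. RNA had been sequenced in 16 libraries from CRAFR26 cells, a mouse embryonic stem cell line. It carries a kinase construct switched on by 4-hydroxytamoxifen (4OHT), so that ERK signalling can be started at a chosen time. The cells were normally grown with LIF, a GSK3 inhibitor (CHIR99021) and a MEK inhibitor (PD0325901, called PD03), and every group, the uninduced one included, had spent the last 48 h before induction with 250 nM of the FGF receptor inhibitor PD173074 (PD17) in place of PD03. The first of 4 groups was taken without 4OHT (0h), the next after 250 nM 4OHT had acted for 2 h (2h) or 4 h (4h), and the last after 4 h of 4OHT followed by 2 h with a MEK inhibitor added (rev). Each group held 4 libraries, 2 replicates from clone 4 and 2 from clone 8 of the targeted line. There was no group given the solvent of 4OHT and none kept for 6 h after 4OHT without the inhibitor. Neither the solvent nor the added time in rev can therefore be told apart from the treatments. No cells without the construct were given 4OHT, so effects of 4OHT itself at 2h and 4h cannot be told apart from those of ERK signalling. Whether replicates of a clone were grown separately was not stated in more detail, and p-values therefore measure the spread between these libraries.

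Mouse embryonic stem cells in the naive state hold themselves undifferentiated through a network of transcription factors that activate one another. Pou5f1 (Oct4) and Sox2 bind DNA side by side at a shared composite element and are needed in all pluripotent cells, whereas Nanog, Prdm14, Esrrb, Nr0b1, Nr5a2, Tfcp2l1, Tbx3 and Zfp42 mark or stabilise the naive state and are mostly lowered as cells move towards the primed epiblast. FGF signalling through MEK and ERK is known for pushing cells out of this state, and MEK inhibition together with GSK3 inhibition and LIF is the standard way to hold them in it.

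Total counts per library ran from 2172651 to 12680303, and 8 abundant gene models, ribosomal RNA models among them, took 42.0% to 80.4% of a library. CPM, counts scaled to a common library total, are therefore given after TMM scaling, with factors from 0.463 to 1.47. A count of 3 corresponded to 0.213 to 1.35 CPM, a floor that covers counting error only, and every member lay far above it. The induction was visible in Spry4, a feedback inhibitor of the pathway, which went from a mean of 0.998 CPM at 0h to 146 at 2h and 245 at 4h, and returned to 3.12 in rev. The summed level of 8 embryonic stem cell markers, 5 of them members, was 1190.0 to 1546 CPM over all groups. This sum hides opposite changes, since at 4h against 0h 5 of the 8 were called higher and 2 lower. Of all tested genes, 17.2% were called higher and 16.8% lower there. The 9 primitive endoderm markers summed to 3.96 to 8.11 CPM, and 7 fibroblast markers to 8.36 to 13.04 CPM at 0h, 6.57 to 10.5 at 2h, then 4.21 to 8.47 at 4h, and 6.40 to 10.4 in rev. Of the fibroblast markers, 3 had enough counts to be tested and 1 of these was called lower at 4h than at 0h, while Dcn was at 0 in all libraries. In RNA from whole cultures, fewer cells expressing a gene and less of its RNA per cell cannot be told apart.

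Before induction, Nanog was the most abundant member per exon length, with 176 ± 41.4 CPM per kb (mean ± SD, n = 4 libraries, as for all levels here). Sox2 followed with 83.6 ± 2.68 CPM per kb and Tfcp2l1 with 74.6 ± 9, and the ranges of these 2 overlapped. Pou5f1 came next with 56.2 ± 3.91 CPM per kb, below the range of Tfcp2l1. Esrrb and Zfp42 could not be ordered, with 42.8 ± 3.89 and 42.6 ± 2.30 CPM per kb. Tbx3 had 21.8 ± 3.01 and Nr0b1 15.8 ± 1.36 CPM per kb, each below its neighbour's range. Prdm14 and Nr5a2 were the least abundant, with overlapping ranges around 12.1 ± 1.29 and 10.4 ± 0.431 CPM per kb.

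Some positions in this order were different after induction. At 4h Nanog had 111 ± 35.0 CPM per kb and Sox2 109.7 ± 13.3, so that the leading pair overlapped. Nr0b1 stood above Tbx3 at 2h and at 4h, with 29.6 ± 4.80 against 22.6 ± 4.24 CPM per kb at 4h, although their ranges overlapped. Prdm14 was the lowest member at 2h, 4h and rev, with 5.11 ± 1.46 CPM per kb at 4h, below the range of Nr5a2. The lengths are those of the union of annotated exons. With the longest transcript as the length, Nanog stayed first in every group, but other positions depended on it. Pou5f1 then moved to rank 2 and Prdm14 to rank 10 at 0h, Pou5f1 stood at 110.5 CPM per kb beside 109.7 for Sox2 at 4h, and Tbx3 stood above Nr0b1 at 2h (35.5 against 29.7) and, by less, at 4h.

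**Figure D1:**
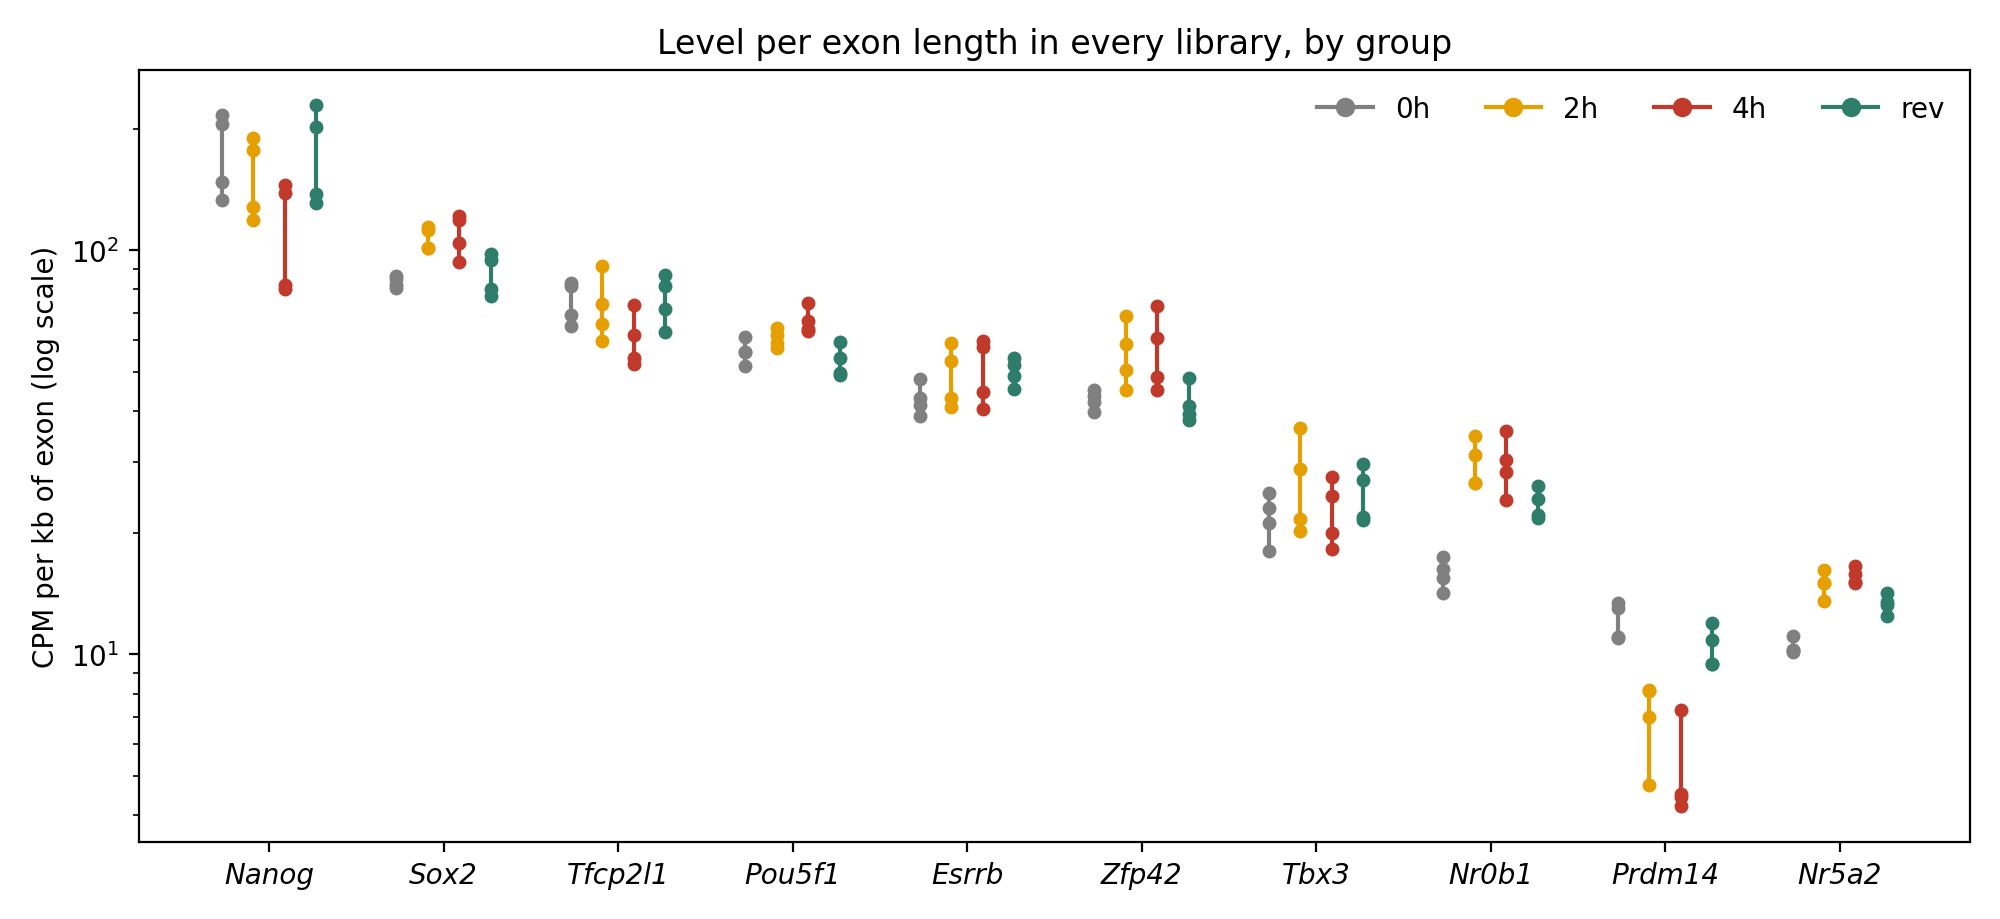
Level of each naive pluripotency factor in CPM per kb of exon (log axis), with 1 point per library and a line from the lowest to the highest of the 4 libraries of a group. Nanog leads at 0h with a mean of 176 CPM per kb and meets Sox2 at 4h, and Prdm14 lies lowest at 2h, 4h and rev.

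RefSeq start sites (GRCm38.p6) were at hand for 8 of the 10 members, all but Prdm14 and Tbx3, and the 250 bases before the start nearest to the annotated gene start were searched on both strands for letters known from this network. Shares are given over the 32851 windows of the same length before all RefSeq starts, of which a gene can have several. Of these, CATTGTNATGCAAA, the composite element read by Sox2 and Oct4, was found in 2 (0.00609%), and both belonged to Nanog's annotated starts, which share the match. The window before the start of Nanog (chr6:122707239-122707488, plus strand) is shown for this element, in capitals, at bases -75 to -62 from the start on the reverse strand. The Sox part alone, CATTGT, part of the composite, was in 10.7% of all windows and, among the member windows nearest to the gene start, in Nanog's alone at that same place. The window before another RefSeq start of Pou5f1, farther from its gene start, also held it.
Nanog: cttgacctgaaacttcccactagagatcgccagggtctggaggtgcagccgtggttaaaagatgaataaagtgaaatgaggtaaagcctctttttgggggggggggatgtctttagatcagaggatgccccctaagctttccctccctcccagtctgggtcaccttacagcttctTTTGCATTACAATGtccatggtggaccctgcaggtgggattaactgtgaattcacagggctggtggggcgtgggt
The octamer ATGCAAAT was in 1.6% of all windows and the letters CCACACCC, bound by Klf factors, in 3.2%. Zfp42 (chr8:43307010-43307259, minus strand) was the only member with either and had both, the octamer at -186 to -179 on the reverse strand and the Klf letters at -75 to -68.
Zfp42: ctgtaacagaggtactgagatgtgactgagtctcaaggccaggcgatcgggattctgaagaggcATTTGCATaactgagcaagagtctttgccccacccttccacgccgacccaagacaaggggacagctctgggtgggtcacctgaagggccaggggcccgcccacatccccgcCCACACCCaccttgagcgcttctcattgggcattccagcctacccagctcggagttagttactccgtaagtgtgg
TTCNNNGAA, the form bound by STAT factors downstream of LIF, reads alike on both strands and was in 7.02% of windows. Esrrb (chr12:86360867-86361116, plus strand) held it at -178 to -170.
Esrrb: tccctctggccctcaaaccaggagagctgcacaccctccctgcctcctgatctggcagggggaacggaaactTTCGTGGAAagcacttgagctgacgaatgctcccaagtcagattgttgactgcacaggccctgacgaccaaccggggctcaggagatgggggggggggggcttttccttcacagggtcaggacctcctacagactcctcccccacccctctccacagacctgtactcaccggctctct
CCGGAA, the core letters of ETS factors, several of which ERK phosphorylates, was in 12.0% of windows. Sox2 (chr3:34649745-34649994, plus strand) held it at -38 to -33 from a RefSeq start that lies 410 bases before the gene start in GENCODE M21.
Sox2: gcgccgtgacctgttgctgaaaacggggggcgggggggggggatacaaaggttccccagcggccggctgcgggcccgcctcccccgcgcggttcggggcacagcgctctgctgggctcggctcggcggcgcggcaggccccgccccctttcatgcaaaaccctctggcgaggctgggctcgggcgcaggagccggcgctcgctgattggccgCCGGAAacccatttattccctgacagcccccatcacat
TCAAGGTCA, the element shared by Esrrb and Nr5a2, was in 0.387% of all windows and in none of the 8 member windows. The windows of Tfcp2l1, Nr0b1, Nr5a2 and Pou5f1 nearest to the gene start held none of these letters. A match is a description of letters in the window, and no match says nothing about binding elsewhere.

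The comparison of 4h with 0h asks how the naive factors differed after 4 h of induction with 4OHT, and they did not move as a block. Of the 10 members, all of which passed the filter on low counts, 6 were higher (Nr0b1, Nr5a2, Zfp42, Sox2, Pou5f1 and Esrrb) and 3 were lower (Prdm14, Nanog and Tfcp2l1) at an edgeR adjusted p under 0.05, and Tbx3 was not called. Of all 12215 tested genes, 17.2% were called higher and 16.8% lower. Of the called genes 50.6% were higher, and 62.9% with library size alone, under which every called member kept its sign but only 2 were called higher (Nr0b1 and Nr5a2) and 1 lower (Prdm14). The median log2 fold change (log2FC) of the members was 0.24, beside -0.02 for all tested genes. At 2h, 5 members were higher than at 0h (Nr0b1, Nr5a2, Zfp42, Sox2 and Tbx3) and 2 lower (Prdm14 and Nanog), beside 11.4% and 9.68% of tested genes. Their median log2FC at 2h was 0.24, beside -0.02 for all genes. Both comparisons share the 0h libraries.

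**Figure D2:**
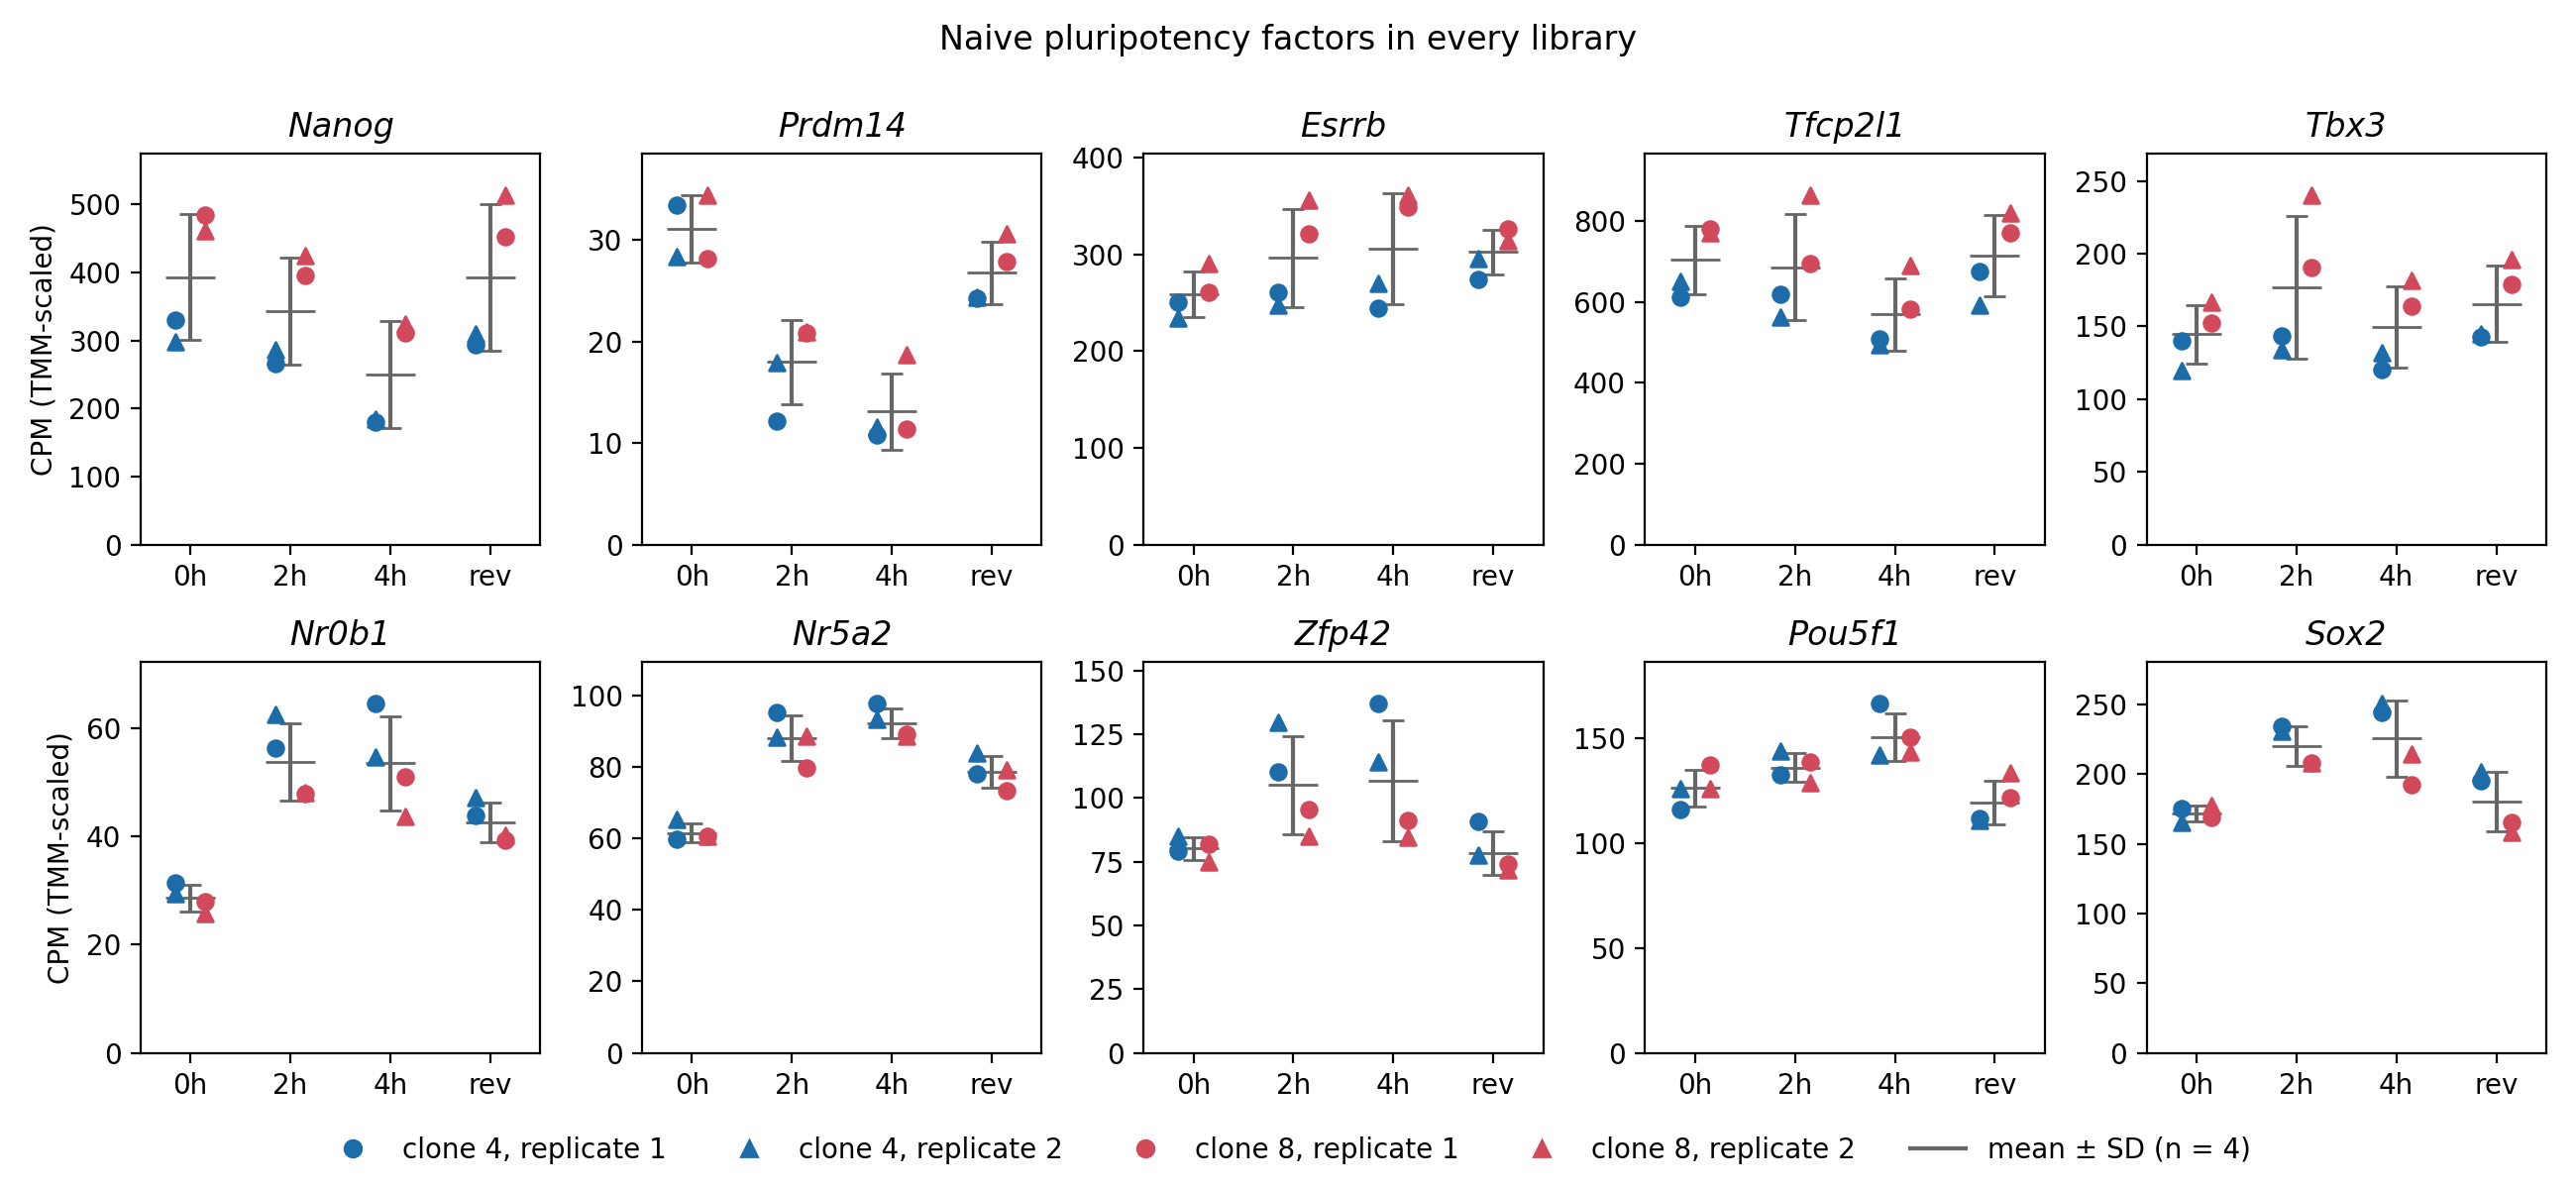
CPM of each naive pluripotency factor in all 16 libraries (linear axis from 0), by group, with clone 4 in blue, clone 8 in red, replicates 1 and 2 as circles and triangles, and the group mean ± SD in grey. Prdm14 falls from 28.1 to 34.4 CPM at 0h to 10.8 to 18.7 CPM at 4h, Nr0b1 rises from 25.7 to 31.5 CPM to 43.7 to 64.6 CPM, and the 2 clones of Nanog form separate bands in every group.

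Of the core pair, Pou5f1 (ENSMUSG00000024406, chr17:35506018-35510772, plus strand) was called at 4h and not at 2h. At 0h Pou5f1 stood at 116 and 126 CPM in clone 4 and 137 and 126 CPM in clone 8. At 2h it was at 132 and 144 CPM in clone 4 and 139 and 129 CPM in clone 8, and the groups overlapped (log2FC 0.10, SE 0.07, edgeR adjusted p 0.389). At 4h its values were 167 and 142 CPM in clone 4 and 150.4 and 143 CPM in clone 8, all above the highest 0h library (log2FC 0.26, SE 0.07, edgeR adjusted p 0.00777). The increase at 4h was a factor of 1.19. Without clone 4 replicate 1 of 4h, its highest library, log2FC was 0.18 and was not called (adjusted p 0.0685, within a range of 0.00333 to 0.403 over all alternatives).

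Sox2 (ENSMUSG00000074637, chr3:34650405-34652461, plus strand), the partner of Pou5f1, was higher at both times. Sox2 libraries at 0h held 175 and 166 CPM in clone 4 and 169 and 178 CPM in clone 8, and those at 2h 234 and 231 CPM in clone 4 and 208 and 208 CPM in clone 8. No 2h library reached down to the 0h range, and the increase was a factor of 1.28 (log2FC 0.35, SE 0.07, edgeR adjusted p 0.000462). Values at 4h were 245 and 251 CPM in clone 4 and 192 and 214 CPM in clone 8, again all above 0h (log2FC 0.38, SE 0.07, edgeR adjusted p 8.91e-05). Both calls were lost with library size alone (edgeR adjusted p 0.696 at 2h and 0.234 at 4h), and that at 4h also in clone 8 alone. Between 2h and 4h the difference of Sox2 was 0.03 on the log2 scale and was not called.

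Nanog (ENSMUSG00000012396, chr6:122707489-122714633, plus strand), the homeodomain factor that sustains self-renewal, fell. At 0h Nanog stood at 331 and 298 CPM in clone 4 and 484 and 461 CPM in clone 8. At 2h it was at 266 and 287 CPM in clone 4 and 396 and 425 CPM in clone 8, and at 4h at 180.3 and 184 CPM in clone 4 and 311 and 324 CPM in clone 8. Over both clones the groups overlapped, with clone 8 higher throughout, but within each clone every 2h library was below every 0h library and every 4h library below every 2h library. The fall at 4h was to 0.625 of the 0h level (log2FC -0.68, SE 0.07, edgeR adjusted p 4.03e-09). At 2h the difference was small (log2FC -0.20, SE 0.07, edgeR adjusted p 0.0476) and its call depended on the fit. It was lost in 21 of the 28 alternatives, for which adjusted p ran from 0.0188 to 0.906. Among these was the omission of any 0h library, of any 2h library but clone 4 replicate 2, of 4h clone 4 replicate 2 or clone 8 replicate 1, or of any rev library but clone 8 replicate 2, where log2FC was -0.22 to -0.16. From 2h to 4h Nanog fell further (log2FC -0.48, SE 0.07, edgeR adjusted p 2.50e-05). Its processed pseudogenes Nanog-ps1 and Nanog-ps2 had at most 1 count in any library.

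Prdm14 (ENSMUSG00000042414, chr1:13113457-13127163, minus strand), a PR-domain zinc finger protein known for repressing FGF receptor signalling and DNA methyltransferase genes in naive cells, had the largest fall of the members. Prdm14 was at 33.4 and 28.3 CPM in clone 4 and 28.1 and 34.4 CPM in clone 8 at 0h, on 41 to 322 counts per library over the series. At 2h its values were 12.2 and 18 CPM in clone 4 and 20.9 and 20.9 CPM in clone 8, and no library overlapped 0h (log2FC -0.79, SE 0.12, edgeR adjusted p 4.55e-06). Values at 4h were 10.8 and 11.6 CPM in clone 4 and 11.4 and 18.7 CPM in clone 8, with clone 8 replicate 2 apart from the other 3, and log2FC from 0h was -1.27 (SE 0.13, adjusted p 9.95e-10). This is a fall to 0.414 of the 0h level. The falls at 2h and at 4h were called in each of the 28 alternatives. The step from 2h to 4h (log2FC -0.48, SE 0.13, edgeR adjusted p 0.0230) was less firm. Leaving out either clone 8 library of 2h, either clone 4 library of 4h or clone 8 replicate 1 of 4h gave log2FC of -0.49 to -0.38 and adjusted p of 0.0550 to 0.139, within 0.00341 to 0.995 over all alternatives.

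The orphan nuclear receptors moved the other way. Nr0b1 (ENSMUSG00000025056, chrX:86191764-86195947, plus strand), also called Dax1, lacks the usual DNA-binding domain and acts through other factors, Oct4 and Nr5a2 among them. Nr0b1 libraries held 31.5 and 29.4 CPM in clone 4 and 28.0 and 25.7 CPM in clone 8 at 0h. At 2h they held 56.3 and 62.6 CPM in clone 4 and 47.9 and 48.0 CPM in clone 8, and at 4h 64.6 and 54.7 CPM in clone 4 and 51.1 and 43.7 CPM in clone 8. Both induced groups lay wholly above 0h, by a factor of 1.86 at 2h (log2FC 0.89, SE 0.08, edgeR adjusted p 2.84e-10) and 1.88 at 4h (log2FC 0.91, SE 0.08, edgeR adjusted p 1.23e-10). These were the largest increases among the members and were called in each of the 28 alternatives. The difference between 2h and 4h was 0.02 (95% interval -0.14 to 0.17), which was not called.

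Nr5a2 (ENSMUSG00000026398, chr1:136842571-136960448, minus strand), or Lrh1, binds the regulatory region of Pou5f1 and can replace Oct4 in reprogramming. Nr5a2 stood at 59.7 and 65.3 CPM in clone 4 and 60.6 and 60.6 CPM in clone 8 at 0h. Its values were 95.3 and 88.5 CPM in clone 4 and 79.7 and 88.8 CPM in clone 8 at 2h, and 97.8 and 93.3 CPM in clone 4 and 89.2 and 88.7 CPM in clone 8 at 4h. Neither induced group overlapped 0h. The increase was a factor of 1.43 at 2h (log2FC 0.51, SE 0.07, edgeR adjusted p 1.19e-06) and 1.49 at 4h (log2FC 0.58, SE 0.07, edgeR adjusted p 6.95e-08).

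Esrrb (ENSMUSG00000021255, chr12:86361117-86521628, plus strand), an estrogen-related receptor downstream of Nanog and of GSK3 inhibition, changed least of the receptors. Esrrb was at 251 and 235 CPM in clone 4 and 260.3 and 291 CPM in clone 8 at 0h. At 4h it was at 245 and 269.7 CPM in clone 4 and 349 and 361 CPM in clone 8, and the groups overlapped through clone 4. The increase of 0.23 (SE 0.08, adjusted p 0.0190) was lost without clone 8 replicate 1 of 0h or without either clone 8 library of 4h (log2FC 0.17 to 0.21, adjusted p 0.0593 to 0.0946), within 0.00699 to 0.555 over all alternatives. At 2h Esrrb held 261 and 248 CPM in clone 4 and 322 and 356 CPM in clone 8, and the difference from 0h was not called (log2FC 0.19, adjusted p 0.0696), though it was without clone 4 replicate 1 of 0h (log2FC 0.23, adjusted p 0.0312, range 0.0291 to 0.907).

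Tfcp2l1 (ENSMUSG00000026380, chr1:118627945-118685168, plus strand) and Tbx3 (ENSMUSG00000018604, chr5:119670669-119684724, plus strand) are targets of LIF signalling that can maintain self-renewal when supplied in excess. Tfcp2l1 held 612 and 652 CPM in clone 4 and 781 and 771 CPM in clone 8 at 0h and 619 and 564 CPM in clone 4 and 696 and 864 CPM in clone 8 at 2h, with no call (log2FC -0.04, SE 0.08, edgeR adjusted p 0.755). At 4h it held 509.7 and 495 CPM in clone 4 and 583 and 689.9 CPM in clone 8, and within each clone both 4h libraries lay below both 0h libraries (log2FC -0.31, SE 0.08, edgeR adjusted p 0.00287). The step from 2h to 4h (log2FC -0.27, SE 0.08, edgeR adjusted p 0.0349) was lost without 2h clone 4 replicate 1 or clone 8 replicate 2, or without 4h clone 4 replicate 1, clone 4 replicate 2 or clone 8 replicate 1, with log2FC of -0.27 to -0.20 and adjusted p of 0.0588 to 0.166, within 0.00628 to 0.995 over all alternatives. Tbx3 was called at 2h and not at 4h. Its values were 139.9 and 119.6 CPM in clone 4 and 153 and 167 CPM in clone 8 at 0h, 143 and 134 CPM in clone 4 and 190.5 and 240.3 CPM in clone 8 at 2h and 121 and 132 CPM in clone 4 and 164 and 182 CPM in clone 8 at 4h. In clone 8 both 2h libraries lay above both 0h libraries, in clone 4 the ranges overlapped, and the rise at 2h (log2FC 0.29, SE 0.08, edgeR adjusted p 0.0107) was lost without clone 8 replicate 2 of 2h (log2FC 0.17, adjusted p 0.132) or clone 8 replicate 1 of 0h (log2FC 0.24, adjusted p 0.0569), within 0.00181 to 0.780 over all alternatives. At 4h log2FC of Tbx3 from 0h was 0.04 (95% interval -0.12 to 0.21).

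Zfp42 (ENSMUSG00000051176, chr8:43295063-43306980, minus strand), or Rex1, is the zinc finger protein whose reporter is used to tell naive cells from those leaving the state. Zfp42 stood at 79.0 and 84.9 CPM in clone 4 and 81.9 and 74.7 CPM in clone 8 at 0h. It was at 110.0 and 129.6 CPM in clone 4 and 95.3 and 85.1 CPM in clone 8 at 2h, and at 137 and 114 CPM in clone 4 and 91.3 and 84.7 CPM in clone 8 at 4h. Both clone 4 libraries were above both clone 8 libraries at 2h and at 4h, while the clones overlapped at 0h. The lowest clone 8 value at 2h was just above the 0h range. That at 4h lay inside it, so the 4h and 0h groups overlapped. Over both clones Zfp42 rose at 2h (log2FC 0.35, SE 0.09, edgeR adjusted p 0.00330) and at 4h (log2FC 0.40, SE 0.09, edgeR adjusted p 0.000578). Fitted on clone 8 alone, neither was called (log2FC 0.22 at 2h, edgeR adjusted p 0.134, and 0.19 at 4h, edgeR adjusted p 0.213). Both calls were also lost with library size alone, and that at 2h without the clone covariate (edgeR adjusted p 0.0989). Over the alternatives adjusted p ran from 0.000372 to 0.683 at 2h and from 4.17e-05 to 0.213 at 4h.

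Between 2h and 4h, 0 members were called higher and 3 lower (Nanog, Prdm14 and Tfcp2l1), beside 3.80% and 3.52% of tested genes. At an unadjusted p under 0.05 edgeR had 1 higher, and DESeq2 also called 0 higher. The members' median log2FC was 0.02 and that of all genes -0.0016. With library size alone the median of all genes moved to 0.10, and 88.0% of called genes were higher at 4h, compared with 51.9% with TMM factors. Tbx3 had log2FC -0.24 and edgeR adjusted p 0.0602. It was called as the fourth without clone 4 replicate 1 of 0h or clone 4 replicate 2 of 2h. Without clone 8 replicate 2 of 2h its log2FC was -0.14, and it was not called. Only Nanog was called without clone 8 replicate 2 of 2h, either clone 4 library of 4h or clone 8 replicate 1 of 4h, and 2 members without 2h clone 4 replicate 1 or clone 8 replicate 1. The other 6 lay between 0.02 and 0.16 with no call.

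The rev group asks what a MEK inhibitor given for 2 h after the induction undid. Compared with 4h, 3 members were higher in rev (Prdm14, Nanog and Tfcp2l1) and 5 lower (Zfp42, Pou5f1, Nr0b1, Sox2 and Nr5a2), beside 7.93% and 8.43% of tested genes. The members' median log2FC was -0.12, beside 0.01 for all genes. This comparison and 4h against 0h share the 4h libraries, and their values are given side by side.

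Nanog in rev stood at 294 and 309.7 CPM in clone 4 and 452 and 514 CPM in clone 8, within each clone above both 4h libraries (log2FC 0.66, SE 0.07, edgeR adjusted p 2.45e-08). Prdm14 in rev stood at 24.3 and 24.3 CPM in clone 4 and 27.8 and 30.7 CPM in clone 8, and all 4 libraries were above the 4h range (log2FC 1.06, SE 0.13, edgeR adjusted p 3.48e-07), a factor of 2.09. Tfcp2l1 in rev stood at 675 and 592 CPM in clone 4 and 772 and 819 CPM in clone 8 (log2FC 0.33, SE 0.08, edgeR adjusted p 0.00362). With library size alone none of these 3 was called, with log2FC of 0.22 for Nanog (adjusted p 0.464) and 0.62 for Prdm14 (adjusted p 0.0643), and the direction of Tfcp2l1 turned. Its log2FC then was -0.10, while the median of all genes moved to -0.41, and relative to that median Tfcp2l1 was 0.30 higher. Among called genes 48.5% were higher in rev with TMM factors and 3.30% with library size alone. The share of counts in the 8 abundant models was 65.9% ± 10.6 in rev compared with 54.1% ± 9.31 at 4h (mean ± SD over 4 libraries). With that share as a covariate Nanog, Prdm14 and Tfcp2l1 were still called higher, and 3 members rather than 5 lower, without Nr5a2 and Sox2.

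Of the members that were lower in rev than at 4h, Pou5f1 held 112 and 111 CPM in clone 4 and 122 and 133 CPM in clone 8, all below the 4h range (log2FC -0.35, SE 0.08, edgeR adjusted p 0.00118). Sox2 held 195 and 202 CPM in clone 4 and 165 and 159 CPM in clone 8 (log2FC -0.32, SE 0.07, edgeR adjusted p 0.00182), and Zfp42 90.7 and 77.5 CPM in clone 4 and 73.9 and 71.7 CPM in clone 8 (log2FC -0.44, SE 0.09, edgeR adjusted p 0.000609). For Sox2 and Zfp42, and for Nr0b1 given next, the groups overlapped across clones, but within each clone rev lay below 4h. Fitted on clone 8 alone, none of the 5 was called lower. Without the clone covariate Zfp42, Nr0b1 and Nr5a2 were not called. Nr0b1 held 43.8 and 47.1 CPM in clone 4 and 39.3 and 40.1 CPM in clone 8 (log2FC -0.35, SE 0.08, edgeR adjusted p 0.00273), and Nr5a2 78.0 and 83.8 CPM in clone 4 and 73.2 and 79.3 CPM in clone 8 (log2FC -0.24, SE 0.07, edgeR adjusted p 0.0165). Every rev library of Nr5a2 was below every 4h library, yet the call was lost without clone 4 replicate 1 or clone 8 replicate 1 of rev (log2FC -0.22 in both, adjusted p 0.0645 to 0.0748, range 0.00603 to 0.242). Esrrb held 274 and 295 CPM in clone 4 and 327 and 314 CPM in clone 8 in rev and Tbx3 143 and 145 CPM in clone 4 and 179 and 196 CPM in clone 8, with log2FC of 0.00 (95% interval -0.15 to 0.16) and 0.15 (95% interval -0.02 to 0.32) from 4h and no call.

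Set against 0h, rev differed in 3 members, all higher (Nr0b1, Nr5a2 and Esrrb), and in 0 that were lower, beside 12.4% and 9.86% of tested genes. By edgeR 0 of the members below 0h had an unadjusted p under 0.05, and DESeq2 called 0 lower. Nr0b1 remained at 1.48 times its 0h level (log2FC 0.57, SE 0.09, edgeR adjusted p 1.38e-05) and Nr5a2 at 1.26 times (log2FC 0.34, SE 0.07, edgeR adjusted p 0.000918), and for both no rev library overlapped 0h. With library size alone neither was called, with log2FC of 0.24 for Nr0b1 (adjusted p 0.519) and 0.01 for Nr5a2 (adjusted p 0.977), which is 0.56 and 0.33 above the median of all genes under that scaling. Esrrb was 0.23 higher on the log2 scale (adjusted p 0.0279), which was lost without 0h clone 4 replicate 2 or clone 8 replicate 1 or without either clone 4 library of rev (log2FC 0.17 to 0.23, adjusted p 0.0554 to 0.129, range 0.0119 to 0.825). With library size alone Esrrb had a log2FC of -0.09, where the median of all genes moved to -0.32, and it was 0.23 above that median. Among called genes 55.8% were higher in rev with TMM factors and 10.4% with library size alone. The members' median was 0.04 and that of all genes -0.01. Nanog differed from 0h by -0.01 (95% interval -0.16 to 0.13), Prdm14 by -0.21 (-0.45 to 0.03) and Tfcp2l1 by 0.02 (-0.14 to 0.18). Of these intervals that of Prdm14 reached furthest below 0h. With 1 library left out Prdm14 differed by -0.31 to -0.14, and with library size alone by -0.54, 0.22 below the median of all genes. It was not called in any alternative. Tbx3 was not called (log2FC 0.19, SE 0.08, edgeR adjusted p 0.0879), though it was without clone 4 replicate 1 of 0h (log2FC 0.26, adjusted p 0.0226, range 0.0226 to 0.719). Pou5f1, Sox2 and Zfp42 had log2FC of -0.10, 0.06 and -0.04 with no call.

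**Figure D3:**
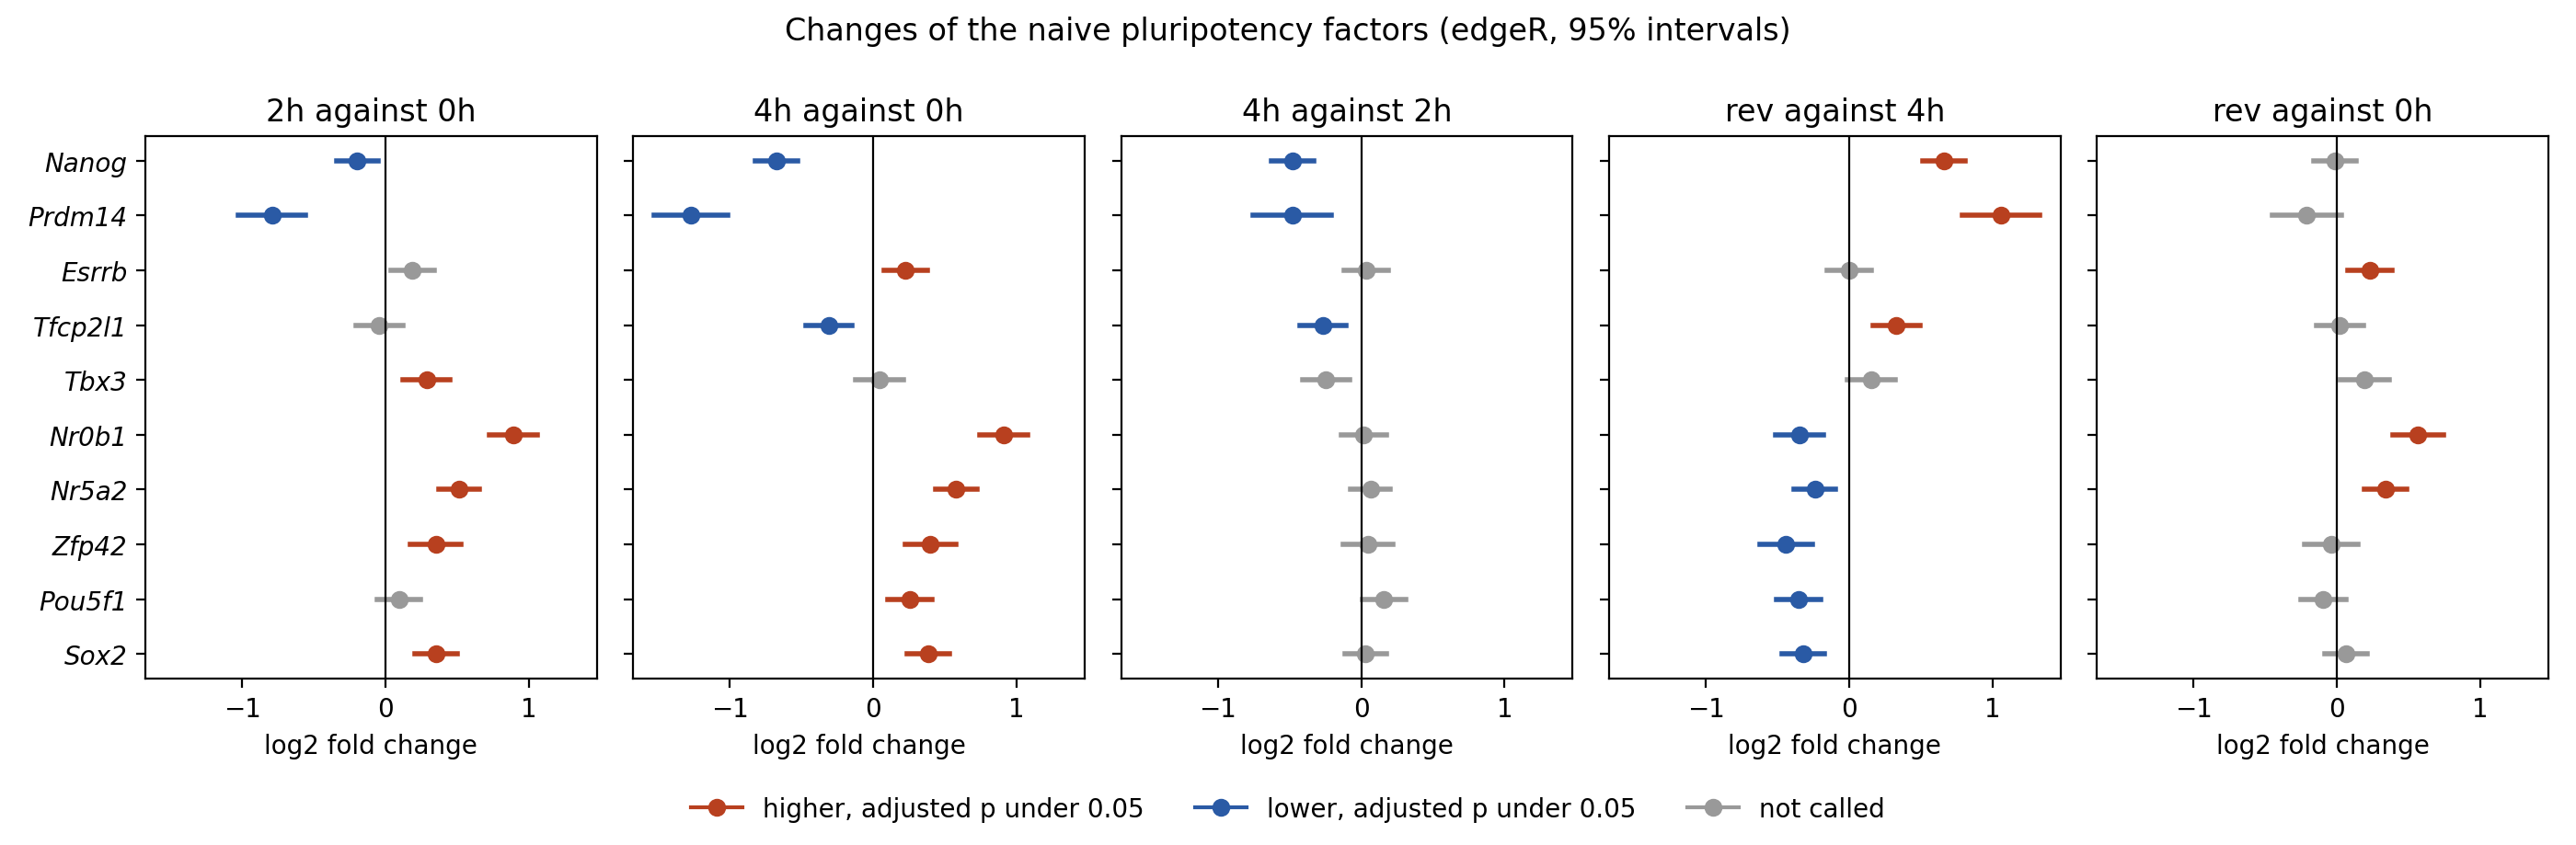
Log2 fold change of each naive pluripotency factor in 5 comparisons with its 95% interval (edgeR), in red where higher, blue where lower and grey where not called. Prdm14 runs from -1.27 at 4h against 0h to 1.06 in rev against 4h, Nr0b1 from 0.91 to -0.35, and the sign of Tfcp2l1 in rev against 4h and of Esrrb in rev against 0h turns when library size alone is used.

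Ratios of counts within a library need no scaling between libraries. Nanog had 3.10 ± 0.604 counts per Pou5f1 count at 0h (mean ± SD, n = 4), 2.54 ± 0.644 at 2h, then 1.68 ± 0.576 at 4h, and 3.25 ± 0.622 in rev. Prdm14 had 0.248 ± 0.0394 at 0h, 0.132 ± 0.0312 at 2h, then 0.0881 ± 0.0290 at 4h, and 0.224 ± 0.00619 in rev. The range of Prdm14 at 4h, 0.0647 to 0.130, lay below that at 0h, 0.205 to 0.288, while in rev it was 0.218 to 0.230. Nr0b1 had 0.228 ± 0.0323 counts per Pou5f1 count at 0h, 0.354 ± 0.0398 at 4h and 0.360 ± 0.0584 in rev. Nr5a2 likewise had 0.489 ± 0.0362, 0.614 ± 0.0323 and 0.663 ± 0.0785, and for both receptors the rev ratios overlapped those at 4h and lay above those at 0h. Tfcp2l1 went from 5.56 ± 0.431 at 0h to 3.81 ± 0.747 at 4h and 5.97 ± 0.436 in rev, and Sox2 from 1.37 ± 0.121 to 1.5 ± 0.202 and 1.53 ± 0.304. These ratios show unequal change of a gene and Pou5f1, which itself was higher at 4h and lower in rev than at 4h, and not that either stayed the same.

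**Figure D4:**
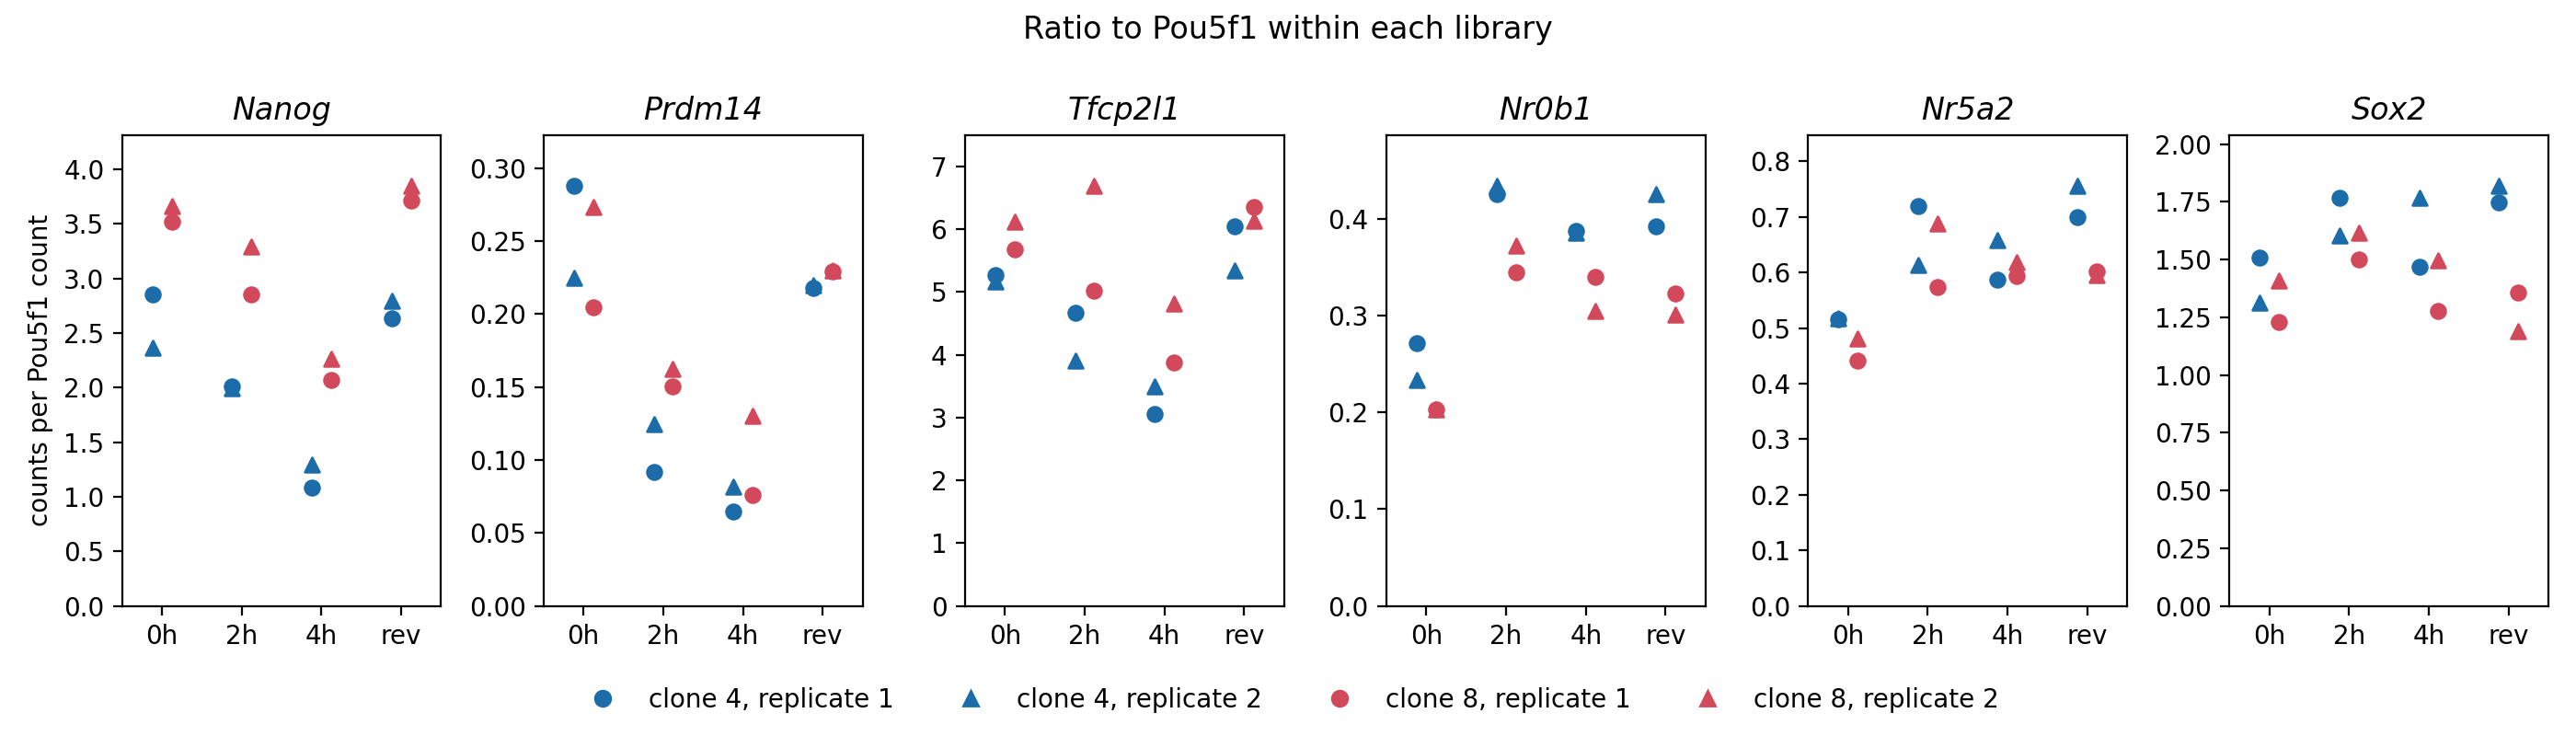
Counts of 6 members per count of Pou5f1 in the same library (linear axes from 0), by group, with clone 4 in blue, clone 8 in red, and replicates 1 and 2 as circles and triangles. The ratio of Prdm14 is 0.205 to 0.288 at 0h and 0.0647 to 0.130 at 4h, and the ratios of Nr0b1 and Nr5a2 in rev lie above those at 0h.

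The clones differed in the level of their naive factors. Averaged over the groups, 5 members were higher in clone 8 than in clone 4 (Nanog, Tbx3, Tfcp2l1, Esrrb and Prdm14) and 3 lower (Zfp42, Nr0b1 and Sox2), beside 15.4% and 13.7% of tested genes. The members' median log2FC was 0.17, beside -0.01 for all genes. The difference was largest for Nanog (log2FC 0.66, SE 0.05, edgeR adjusted p 2.63e-12), and in each of the 4 groups both clone 8 libraries were above both clone 4 libraries. The same held for Tbx3 (log2FC 0.44, SE 0.06, edgeR adjusted p 2.58e-07), Tfcp2l1 (log2FC 0.34, SE 0.06, edgeR adjusted p 1.44e-05) and Esrrb (log2FC 0.31, SE 0.05, edgeR adjusted p 2.55e-05). Nr0b1 was lower in clone 8 in all 4 groups without overlap (log2FC -0.25, SE 0.06, edgeR adjusted p 0.000906), and Zfp42 (log2FC -0.30, SE 0.06, edgeR adjusted p 0.000289) and Sox2 (log2FC -0.18, SE 0.05, edgeR adjusted p 0.00816) in 3 of 4. The call of Sox2 was lost with the share of the 8 abundant models as a covariate (edgeR adjusted p 0.0709, range over the alternatives 0.00123 to 0.0709). Prdm14 (log2FC 0.29, SE 0.09, edgeR adjusted p 0.0127) was higher without overlap in 2 of 4 groups, and without clone 4 replicate 1 of 2h its difference was 0.20 and not called (adjusted p 0.105, range 0.00315 to 0.889). Nr5a2 and Pou5f1 were not called, with -0.10 and 0.05, and Pou5f1 turned to -0.22 with library size alone. That scaling moved the median of all genes to -0.26 and the share of called genes that were higher in clone 8 from 53.1% to 13.6%. Under it none of the 5 higher members was called (edgeR adjusted p 0.0780 to 0.889), with log2FC of 0.04 to 0.39, which is 0.29 to 0.65 above its median. Targets of the induction were lower in clone 8 as well, Spry4 by a log2FC of -0.23, Dusp6 of -0.27 and Egr1 of -0.58. Of other markers, 6 of 10 tested formative or primed epiblast markers were lower in clone 8 and 0 higher (median log2FC -0.31), 2 of 3 mesoderm markers were lower (median -1.42), 2 of 4 trophectoderm markers were lower (median -0.47), and of 3 neurectoderm markers 2 were higher and 1 lower. The part of these genes in the difference was not tested.

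Whether a member responded differently in the 2 clones was tested as an interaction, and 0 of the 10 were called in any comparison, by edgeR or by DESeq2. Such calls were rare among all tested genes, with 0.0901% at 2h against 0h, 0.311% at 4h against 0h, 0.0327% at 4h against 2h, 0.00819% in rev against 4h and 0.0573% in rev against 0h. At an unadjusted p under 0.05 there were 3, 3, 0, 1 and 1 members in these comparisons in that order. At 4h Zfp42 had log2FC of 0.61 in clone 4 and 0.18 in clone 8 (difference -0.43, 95% interval -0.75 to -0.12, adjusted p 0.216). Sox2 had 0.54 in clone 4 and 0.23 in clone 8 (difference -0.32, 95% interval -0.58 to -0.06, adjusted p 0.290), and Esrrb 0.09 in clone 4 and 0.36 in clone 8 (difference 0.28, 95% interval 0.00 to 0.55, adjusted p 0.420). At 2h Prdm14 had -1.14 in clone 4 and -0.60 in clone 8 (difference 0.55, 95% interval 0.08 to 1.01, adjusted p 0.414). Tbx3 had 0.11 in clone 4 and 0.43 in clone 8 and Zfp42 0.52 in clone 4 and 0.21 in clone 8 at 2h, with differences of 0.32 and -0.31 that were not called. For Nanog at 4h the fall was -0.78 in clone 4 and -0.57 in clone 8 (difference 0.21, 95% interval -0.06 to 0.49, adjusted p 0.572), and for Nr0b1 the rise was 0.98 in clone 4 and 0.84 in clone 8 (difference -0.14, 95% interval -0.48 to 0.20, adjusted p 0.799). With 2 libraries per clone and group these intervals leave room for differences of the size of the smaller responses.

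Another 29 genes of the pluripotency network, all of which were tested, gave a wider view. At 2h 15 were higher and 3 lower than at 0h, at 4h 16 and 3, and at 4h against 2h 7 and 2. Compared with 4h, 7 were higher and 9 lower in rev, and compared with 0h 17 were higher and 2 lower in rev. The omission of 4h clone 4 replicate 1 raised the count of lower genes at 4h to 5 against 0h and to 4 against 2h. The background shares are those given above for the same comparisons, and the list's median log2FC at 4h was 0.24, beside -0.02 for all genes. Among the largest increases at 4h were those of Lin28a, which blocks let-7 maturation (log2FC 2.64, SE 0.15, adjusted p 8.45e-16), and of Utf1, a chromatin-associated factor (log2FC 2.01, SE 0.11, adjusted p 6.92e-16). The 3 largest decreases were those of Fgf4, Dppa3 and Klf4. Fgf4, a target of Oct4 and Sox2, is a ligand of the receptors that PD17 inhibits. It went from 130.0 ± 12.5 CPM at 0h to 62.6 ± 17.1 CPM at 4h (log2FC -1.09, SE 0.09, edgeR adjusted p 3.48e-12). Dppa3 had a log2FC of -0.54 (SE 0.10, edgeR adjusted p 8.55e-05) and Klf4 of -0.35 (SE 0.10, edgeR adjusted p 0.00730). In rev Fgf4 stood at 166 ± 19.1 CPM, above 4h (log2FC 1.45, SE 0.09, adjusted p 7.09e-15), and Klf2 (log2FC 0.69, SE 0.08, adjusted p 1.09e-07) and Klf4 (log2FC 0.51, SE 0.10, adjusted p 0.000466) were also higher than at 4h. Dppa4 (log2FC -1.02, SE 0.12, adjusted p 7.68e-08) and Lin28a (log2FC -1.01, SE 0.13, adjusted p 3.66e-07) were among the genes with the largest decreases from 4h to rev. Markers of other embryonic cells also differed at 4h, with 6 of 10 tested formative or primed epiblast markers, 2 of 3 mesoderm markers, 3 of 3 markers of 2-cell-like cells, 3 of 4 trophectoderm and 1 of 3 neurectoderm markers called higher than at 0h, and the other trophectoderm marker, Tfap2c, called lower (log2FC -0.73, adjusted p 3.76e-07). The summed level of 11 formative or primed epiblast markers was 93.9 to 141 CPM at 0h, with Fgf5 at 0 in all 4 libraries, 156 to 235 at 2h, then 136 to 226 at 4h, and 115 to 192 in rev. That of 5 mesoderm markers was 3.31 to 5.97 CPM at 0h, 13.7 to 36.8 at 4h and 2.98 to 8.21 in rev, and that of 6 markers of 2-cell-like cells 2.89 to 4.92 at 0h, 10.1 to 11.3 at 4h and 3.65 to 11.7 in rev. The 7 trophectoderm markers summed to 37.5 to 53.0 CPM at 0h and 33.4 to 47.2 at 4h and 36.5 to 52.3 in rev, and the 4 neurectoderm markers to 26.1 to 42.3, 28.0 to 34.4 and 32.6 to 47.8. Only 3 of the 6 markers of 2-cell-like cells and 4 of the 7 trophectoderm markers had enough counts to be tested. Among these, Zscan4c, Zscan4d, Usp17lc, Gata3 and Cdx2 had means of 0.902 to 1.32 CPM at 0h. These lie near the floor, which was 0.213 to 1.35 CPM. The part of other embryonic cells in the members' values was not tested.

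Likeness of pattern was described by Pearson's r of log2 CPM over the 16 libraries after subtracting each clone's mean, among tested genes with a mean of at least 5 CPM. These r are given without a test, since the points share libraries, depth and the 4 groups. The genes most like Nanog were Kank2 (r = 0.952), Pramel6 (0.946) and Hip1r (0.931), and those most like Prdm14 Slc45a4 (r = 0.959), Ephb4 (0.957) and Rab11fip1 (0.938). For Nr0b1 they were Jade1 (r = 0.967), B3gnt7 (0.962) and Slc39a14 (0.956), and for Nr5a2 Jade1 (r = 0.976), Slc39a14 (0.965) and Nefm (0.962), so that Jade1 and Slc39a14 stood on both lists. Sox2 was nearest to Trim16 (r = 0.949), Dbf4 (0.946) and Spry4 (0.938), the last of them the feedback inhibitor used to check the induction. Pou5f1 was nearest to Ddx39 (r = 0.951) and, among others, Dut (0.925), and Zfp42 to Paip2b (r = 0.931), Pdhb (0.906) and Id3 (0.900). Esrrb was nearest to Setd1a (r = 0.945), Tab2 (0.930) and Ptbp1 (0.924), Tfcp2l1 to Numa1 (r = 0.889), Nsd1 (0.876) and Atg13 (0.865) and Tbx3 to Gatad2b (r = 0.858), Rybp (0.850) and Kat5 (0.825), and the highest r of Tbx3 was the lowest such value among the members. Among the members themselves, r was 0.951 for Nr0b1 and Nr5a2, 0.878 for Nanog and Prdm14, 0.878 for Zfp42 and Pou5f1 and -0.841 for Prdm14 and Nr5a2.

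Reads were counted per gene by a method whose strand setting is not given in the sources used here, so exons shared with other genes could matter. Tbx3 shares up to 115 bases with its antisense gene Tbx3os1, which had at most 7 counts in a library, and Pou5f1 up to 170 bases with the antisense gene Gm19553, which had at most 5. Tfcp2l1 shares 130 bases with the small nuclear RNA gene Gm23497, which had 0 counts. The other 7 members overlap no exon of another gene in GENCODE M21.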

How the data were processed

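The 16 libraries were made with a NEBNext Ultra II kit after removal of ribosomal RNA, per the labels' protocols. The authors deposited raw read counts for each Ensembl gene, and all values in the table are whole. Per the submitters' processing notes, bcl2fastq 2.19.1, STAR 2.5.3a and the mm10 build were used. The counting tool, annotation and strand setting are not given in the sources used here. Identifiers were matched to GENCODE M21 (GRCm38) for symbols, positions and exon lengths, 52489 of 52636 with a match. Upstream windows came from RefSeq (GRCm38.p6).

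Groups, clones and replicates were taken from the sample titles. In R 4.3.3 with edgeR 4.0.16 (limma 3.58.1), genes were filtered with filterByExpr, which left 12215, and scaled with TMM. Terms for group and clone were estimated by quasi-likelihood over all 16 libraries, each comparison was a two-sided contrast, and p-values were adjusted by Benjamini-Hochberg over all tested genes, with calls at 0.05. Fitting each of the 8 combinations of group and clone separately gave differences in response between clones. The SE comes from log2FC and the F statistic. CPM uses the TMM-scaled library size, and log2 CPM a prior count of 2. The fit was tested on simulated counts. Depth per library ran from 2172651 to 12680303 counts. Counts of replicates of a clone, scaled by their totals without TMM factors, differed by more than sampling noise. The chi-square per gene was 2.97 to 79.4, with 1 expected. Differences in the share of the 8 abundant models enter these values. The highest was that of rev in clone 8, with shares of 65.9% and 80.4%.

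The members, the gene lists and the naming rule were chosen with earlier results of these data known. All 10 members are named, and of the 29 other network genes the 3 called in each direction with the largest change at 4h against 0h, and likewise in rev compared with 4h. For likeness, the 3 genes with the highest r per member are named. A few genes that these rules select are not reported here. Alternatives were RLE factors, library size alone, no filter on low counts, a mean of at least 1 CPM, the replicate block, no clone covariate, the 8 most abundant models removed or their share as a covariate, a fit of the compared groups alone, each clone alone, DESeq2 1.42.0, the longest transcript as length, and each library left out.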

Additional observations from a re-analysis of the deposited data

Results flagged for a closer look

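At 4h, Prdm14 in clone 8 replicate 2 stood at 18.7 CPM, far from the other 3 libraries of the group, which held 10.8 to 11.6 CPM. At 0h, Nr5a2 in clone 4 replicate 2 stood at 65.3 CPM, apart from the other 3 at 59.7 to 60.6 CPM. Both are single libraries whose gap to the nearest value took up most of the range of their group of 4, by Dixon's 95% criterion, among 40 sets of member and group. Chance flags about 1 in 20 such sets. Neither value took the library across to the range of another group that the text sets apart from it, since the highest 4h value of Prdm14 stayed below its lowest 0h value and the highest 0h value of Nr5a2 below its lowest 2h value.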

How the results depend on the processing

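Of the 38 called member values, 2 changed sign under an alternative, both with library size alone, which moved the median of all genes to -0.41 in rev against 4h and -0.32 in rev against 0h. Removing the 8 most abundant models, filtering at a mean of 1 CPM and DESeq2 left every call in place. The number of members called lower at 2h was 1 instead of 2 with RLE size factors, no low-count filter, the replicate block, no clone covariate, the share of the 8 abundant models as a covariate, only the groups of that comparison and either clone alone, Nanog being the one lost. Between groups, libraries of the same clone and replicate number had a mean r of 0.00985 over 12 pairs (-0.32 to 0.19), with 4 above 0.1. With 2 libraries per clone and group, these r cannot decide whether replicate numbers pair the libraries. The replicate block changed no other call of a member. Library size alone gave 1 higher and 1 lower at 2h, 2 and 1 at 4h, 0 lower at 4h against 2h, and 0 higher in rev against 4h, rev against 0h and clone 8. Without the clone covariate there were 3 higher at 2h, 5 higher and 2 lower at 4h (Esrrb and Tfcp2l1 lost), 2 higher in rev against 0h (Esrrb lost), 0 lower at 4h against 2h, and 1 higher and 2 lower in rev against 4h. With the share covariate 3 were lower in rev against 4h. Clone 4 alone gave 1 lower at 4h against 2h, and clone 8 alone 3 higher and 2 lower at 4h (Pou5f1, Sox2, Zfp42 and Tfcp2l1 lost) and 0 lower both in rev against 4h and at 4h against 2h, each on fewer libraries. Leaving out each library gave 1 to 2 lower at 2h and 1 to 4 lower at 4h against 2h. Over the 29 network genes, higher counts with library size alone were 4 at 2h, 8 at 4h, 2 at 4h against 2h, 1 in rev against 4h and 3 in rev against 0h, and lower counts 0, 1 and 0 in the first 3 and 1 in the last. Without the clone covariate 9, 3, 4 and 10 were higher at 2h, at 4h against 2h, in rev against 4h and in rev against 0h, and 0 lower at 4h against 2h, and with the share covariate 4 were higher in rev against 4h. Of all genes, library size alone called 338 instead of 2572 at 2h, 881 instead of 4146 at 4h, 100 instead of 894 at 4h against 2h, 1010 instead of 2722 in rev against 0h and 2125 instead of 3555 between clones. With 1 library left out, 1805 to 2644 genes were called at 2h, 3439 to 4156 at 4h and 562 to 973 at 4h against 2h. In rev these counts were 1393 to 2134 against 4h and 2099 to 2808 against 0h. The background shares vary with these counts.

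Signs turned as follows, on the log2 scale, mostly of values near 0. Esrrb in rev against 4h was -0.0042 with RLE factors, -0.41 with library size alone, -0.016 without the filter, -0.014 with the covariate, -0.015 without clone, -1.3e-05 with 2 groups, -0.14 in clone 8, -0.0034 by DESeq2 and -0.058 to 0.038 with 1 library left out. Library size alone turned Tfcp2l1 (-0.10) and Tbx3 (-0.28) in rev against 4h, Esrrb (-0.085), Tfcp2l1 (-0.31), Tbx3 (-0.14) and Sox2 (-0.27) in rev against 0h, and Pou5f1 (-0.22) between clones. At 4h against 2h, Nr0b1 was -0.011 without the filter, -0.00020 with the covariate and -0.0034 in clone 8, Sox2 -0.0046 with the covariate and -0.033 in clone 8, and Zfp42 -0.026 in clone 8. In clone 4 Tbx3 was -0.027 at 4h, and Tfcp2l1 -0.0065 and Zfp42 0.033 in rev against 0h. In clone 8 Tfcp2l1 was 0.017 at 2h, and Nanog 0.041 and Sox2 -0.082 in rev against 0h. With 1 library left out, the ranges that crossed 0 were -0.12 to 0.0049 for Tfcp2l1 at 2h, -0.0076 to 0.10 for Tbx3 at 4h, -0.0014 to 0.088 for Esrrb, -0.046 to 0.063 for Nr0b1 and -0.046 to 0.099 for Zfp42 at 4h against 2h, and -0.060 to 0.025 for Nanog, -0.021 to 0.052 for Tfcp2l1 and -0.094 to 0.015 for Zfp42 in rev against 0h. The cause was not tested. Depth limits Prdm14 most, on 41 to 322 counts per library.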
